A study of Mus musculus with 43 samples.

Results

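A set of 10 core genes of the circadian clock was followed through visual cortex of mice exposed to flickering light. They were Per1, Per2, Per3, Arntl (the gene of BMAL1), Clock, Cry1, Cry2, Nr1d1, Nr1d2 and Dbp. The genes were chosen by symbol, and all 10 had a row in every file, out of 23953 gene symbols. Expression was measured by RNA-seq in 43 libraries from nuclei stained for the neuronal protein NeuN or from microglia stained for CD11b and CD45. The stimulus, called GENUS, was visual stimulation at 40 Hz, a frequency in the gamma range of cortical rhythms. The comparisons ask whether clock gene levels differed after the flicker in each mouse model, and whether they differed between untreated model mice and controls.

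CK-p25 mice carry Camk2a-tTA and tetO-CDK5R1/GFP, so that p25, an activator of the kinase Cdk5, and GFP are made in excitatory forebrain neurons when the transgene is induced. Both CK-p25 groups had 6 weeks of p25 induction, and the GENUS group had 43 days of stimulation. Neuronal nuclei came from 4 CK-p25 GENUS libraries, 5 untreated CK-p25 libraries and 5 libraries of the controls named CK, which are labelled wild type. Microglia of the same model came from 4 CK-p25 GENUS, 4 untreated CK-p25 and 4 CK libraries. P301S mice carry Tg(Prnp-MAPT*P301S)PS19, a mutant human tau under the prion protein promoter, and were 8 months old. Their neuronal nuclei came from 5 libraries with 22 days of GENUS, 6 untreated libraries and 6 wild-type (WT) libraries. Neither the hour of tissue collection nor the light schedule is given in the sources used here. Nothing in the labels says that replicates were separate animals, so p-values measure the spread between these libraries, which may be technical.

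The clock is a loop of transcription that runs in most cells with a period of about a day. BMAL1 and CLOCK bind E-box motifs and switch on the Period and Cryptochrome genes, whose proteins then block BMAL1 and CLOCK. They also switch on Nr1d1 and Nr1d2, the genes of the repressors REV-ERB alpha and beta, which act on Arntl through motifs shared with the ROR activators, and Dbp, an activator that binds D-box motifs. Per1 is also an immediate response gene that neurons transcribe after light or synaptic activity, and in microglia the clock is known to shape cytokine output.

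The motifs through which these genes act on each other are shown here where they occurred in the members' own promoters. RefSeq promoters of GRCm38.p6, from 250 bases before to 50 after a transcript start, were at hand for 9 of the 10 members, in 13 windows. Both strands were searched for the E-box CACGTG, the related CACGTT, the D-box TTANGTAA and the REV-ERB and ROR core TAGGTCA. They occurred in 7.15%, 4.68%, 2.32% and 2.61% of 32851 such windows, in that order, and at least 1 occurred in 6 members. The shares are per window and per motif, while the member count takes any motif in any window of a gene. The share of all genes with any of the motifs was not computed, so the member count has no background beside it. Stretches are written 5′ to 3′ on the gene's strand with the motif in capitals, and AACGTG is CACGTT read from the other strand.
Per1: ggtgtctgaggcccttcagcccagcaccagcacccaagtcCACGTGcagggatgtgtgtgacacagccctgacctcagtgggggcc
Cry1: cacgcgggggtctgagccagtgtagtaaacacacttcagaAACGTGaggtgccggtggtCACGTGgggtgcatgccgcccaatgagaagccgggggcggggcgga
Cry2: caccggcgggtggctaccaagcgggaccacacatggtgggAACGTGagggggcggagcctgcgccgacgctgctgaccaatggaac
Nr1d1: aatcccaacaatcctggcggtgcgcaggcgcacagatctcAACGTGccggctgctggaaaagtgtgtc
Per3: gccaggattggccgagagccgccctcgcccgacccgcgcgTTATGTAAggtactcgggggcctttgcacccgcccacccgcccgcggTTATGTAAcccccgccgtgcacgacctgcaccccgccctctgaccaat
Arntl: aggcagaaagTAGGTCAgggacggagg
The Per1 stretch is chr11:69098743-69098828 on the plus strand, with its E-box beginning at position -166 from the start. The Cry1 stretch is chr10:85185069-85185173 on the minus strand, with an AACGTG at -79 and a CACGTG at -60. Those of Cry2, chr2:92434190-92434275, and Nr1d1, chr11:98775378-98775445, are also on the minus strand and carry AACGTG at -166 and at -28. The Per3 stretch, chr4:151044776-151044910 on the minus strand, holds a pair of D-boxes at -205 and -158. The Arntl stretch, chr7:113207531-113207557 on the plus strand, lies inside the transcript with TAGGTCA at position 31. The windows of Clock, Nr1d2 and Dbp held none of the 4 motifs in these letters, nor did another window of Per1 and another of Arntl.

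All values are FPKM, read fragments normalized to transcript length and to the number mapped in the library, so the depth behind them is unknown. Neuronal libraries of the CK-p25 set had 12103 to 12555 genes at 1 FPKM or more. For P301S neurons it was 11754 to 12139 genes, and for microglia 9942 to 10393. No 2 files held identical values. The summed level of 6 neuron markers (Rbfox3, Snap25, Syt1, Slc17a7, Gad1, Camk2a) was 977 to 1607 FPKM in neuronal libraries and 1.70 to 22.1 FPKM in microglia. The 7 microglia markers (Cx3cr1, P2ry12, Itgam, Ptprc, Csf1r, Tmem119, C1qa) summed to 10318 to 15797 FPKM in microglia and 0.330 to 10.9 FPKM in neuronal libraries. In bulk samples, fewer cells of a type and less RNA per cell cannot be told apart.

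In neuronal nuclei, all 10 members were expressed in all 31 libraries. Group means of the 9 members other than Cry1 lay between 12.6 FPKM, for Per1, and 30.0 FPKM, for Per3. Group means ran from 15.7 to 20.5 FPKM for Arntl and from 24.4 to 30.0 FPKM for Per3. Cry1, a strong repressor of BMAL1 and CLOCK, was the lowest member in all 6 groups, and its libraries did not reach those of the next gene in any group. It averaged 3.34 ± 0.847 FPKM in CK-p25 GENUS nuclei (SD, n = 4), 3.87 ± 1.36 in untreated CK-p25 nuclei and 3.21 ± 1.08 in CK nuclei (n = 5 each). Between the other 9 members, neighbours in the order of levels overlapped in every group, so the order of neighbours was not resolved. Members farther apart in the order could be separate. In CK nuclei, Per3 at 23.0 to 31.2 FPKM lay above Dbp at 6.67 to 19.0 FPKM in every library. Per3 or Cry2 headed the order in 5 of the 6 groups, and Nr1d2 in CK-p25 GENUS nuclei.

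**Figure D1:**
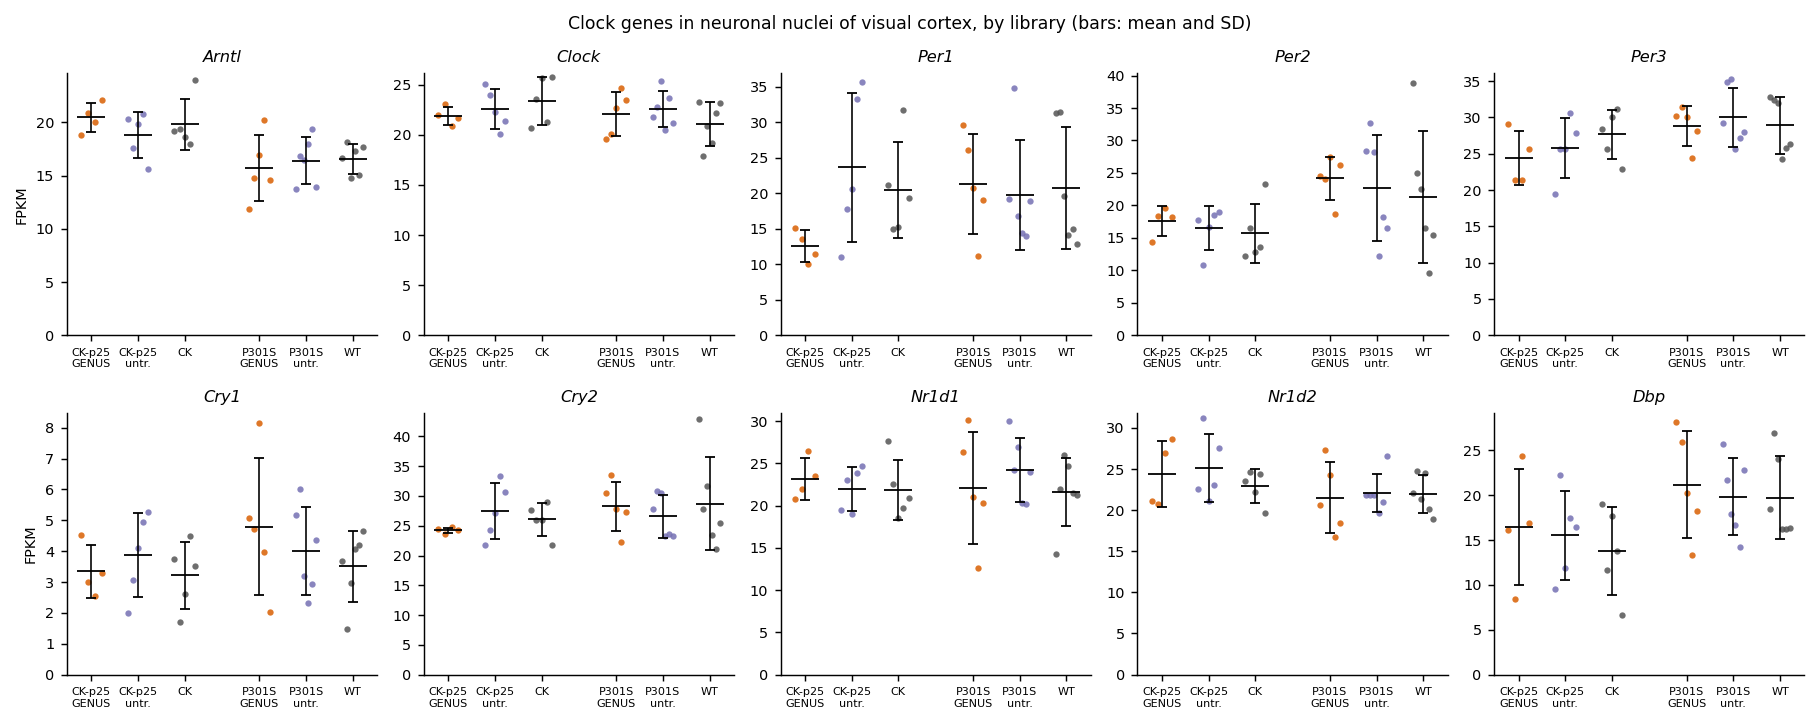
FPKM of each clock gene in neuronal nuclei, 1 panel per gene, with 1 point per library and bars for the mean and SD. Groups run from GENUS to untreated to control within the CK-p25 set and then within the P301S set. Per1 in CK-p25 GENUS nuclei lies between 10.1 and 15.1 FPKM, and Cry1 is the lowest gene throughout.

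Replicates differed far more for some members than for others. Within groups of the CK-p25 neurons, Clock had an SD of 0.12 on the log2(FPKM + 1) scale, smaller than that of most genes (8.63% of tested genes had a smaller SD). Arntl, at 0.14, was close to it. Dbp varied most, with an SD of 0.53 (88.6% of genes had a smaller one), and Per1 followed at 0.49 (86.0%), against a median of 0.26 over all tested genes. In P301S neurons Clock had 0.13 (5.6%) and Per1 and Per2 each had 0.51 (79.5% and 80.0%). In microglia it was 0.18 for Clock (28.1%) and 0.64 for Dbp (95.6%), and Nr1d1 and Cry2 each had 0.57. Clock was the steadiest member in all 3 sets, while Arntl was steady in neurons and had 0.38 (83.4%) in microglia.

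Microglia ranked the members differently. Nr1d2 was the highest member in all 3 groups, with libraries apart from those of the next gene, at 11.7 ± 3.58 FPKM in CK-p25 GENUS, 14.4 ± 3.94 in untreated CK-p25 and 19.1 ± 3.20 in CK microglia (SD, n = 4 each). The 3 Period genes were the lowest. Per2 ranged from 0.0857 to 1.28 FPKM and Per3 from 0.287 to 1.52 FPKM over the 12 microglia libraries, and both averaged under 1 FPKM, the level required for testing. Per1 ranged from 0.681 to 2.19 FPKM. The mean of CK neurons was 27.7 times that of CK microglia for Per3, 17.5 times for Per1 and 16.1 times for Per2, but 1.72 times for Dbp and 1.20 times for Nr1d2, and for Cry1 it was 0.629 times. Neuronal libraries were made from nuclei with a stranded total RNA kit, and microglia libraries from sorted cells with SMART-Seq v4. These ratios are therefore descriptions and were not tested.

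**Figure D2:**
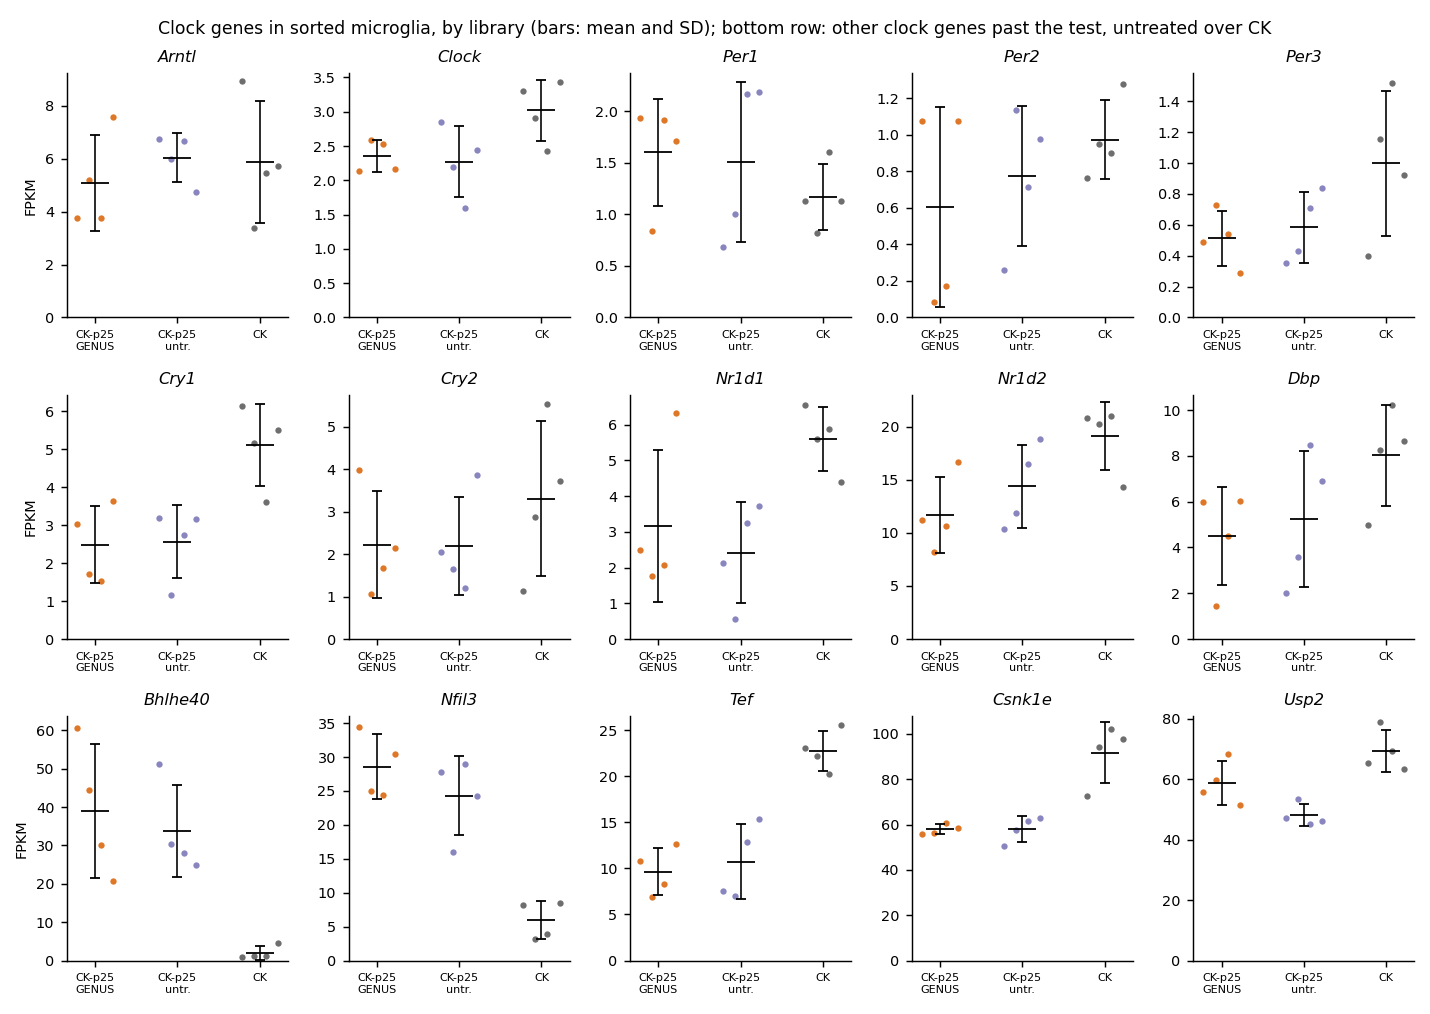
FPKM of each clock gene in sorted microglia, with the bottom row holding the other clock genes that passed the test between untreated CK-p25 and CK. Each point is 1 library and bars are the mean and SD, with 4 libraries in each of CK-p25 GENUS, untreated CK-p25 and CK. Nr1d2 is the highest clock gene member, and Cry1 and Nr1d1 of untreated CK-p25 microglia all lie below CK.

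Under flicker, no clock gene passed the test in CK-p25 neurons. Testing was done with limma on log2(FPKM + 1) over all 12567 genes with a mean of at least 1 FPKM, and a gene was called at a Benjamini-Hochberg adjusted p under 0.05. Of the 10 members 0 were called and 1 had an unadjusted p under 0.05, beside 0% of all tested genes called and 933 genes with an unadjusted p under 0.05. The groups did not overlap for 0 of the 10 members, against 2.58% of tested genes. The median log2 change of the members was -0.04, that of all tested genes 0.00.

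The member with the unadjusted p under 0.05 was Per1, the light- and activity-responsive Period gene. Per1 was at 15.1, 13.6, 10.1 and 11.5 FPKM in CK-p25 GENUS nuclei and at 11, 17.8, 20.6, 33.3 and 35.6 FPKM in untreated CK-p25 nuclei. CK nuclei had 21.2, 15.0, 15.2, 31.7 and 19.4 FPKM of Per1. The 4 stimulated libraries were low and close together, and overlapped the untreated group through its lowest library, replicate 1. The difference was -0.76 on the log2 scale (SE 0.29, 95% interval -1.38 to -0.14), with a limma adjusted p of 0.602. Per1 ranked 402 among tested genes by p. Summed microglia markers in these nuclei were 4.05 to 10.9 FPKM with GENUS and 1.84 to 4.57 FPKM without, and summed levels of 6 astrocyte markers were 165 to 271 and 121 to 178 FPKM. Of 9 tested activity-induced genes, 8 were also below 0 with GENUS, though 0 were called by limma or had an unadjusted p under 0.05. The part of these markers and genes in the Per1 difference was not tested.

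The other repressors were not called, and their libraries overlapped between the groups. Cry1 had 4.52, 3.0, 2.54 and 3.30 FPKM in CK-p25 GENUS nuclei and 1.99, 3.07, 4.09, 4.96 and 5.27 FPKM in untreated ones, a log2 difference of -0.14 (interval -0.67 to 0.40). Cry2, its paralog, had 24.4, 23.7, 24.7 and 24.2 FPKM with GENUS and 21.8, 24.3, 27.2, 33.4 and 30.7 FPKM without. The stimulated Cry2 libraries were close together and inside the untreated range, at -0.16 (interval -0.39 to 0.08). Per2, which is needed for normal rhythms, had 14.3, 18.4, 19.6 and 18.2 FPKM with GENUS against 17.7, 10.8, 16.6, 18.5 and 19.1 FPKM without. Per3 had 29.1, 21.4, 21.3 and 25.6 FPKM with GENUS against 19.4, 25.6, 25.6, 30.6 and 27.9 FPKM without. Both overlapped between the groups, with log2 differences of 0.10 for Per2 (interval -0.29 to 0.50) and -0.08 for Per3 (interval -0.36 to 0.20).

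Among the activators, Arntl had 18.8, 20.9, 20.1 and 22.1 FPKM in CK-p25 GENUS nuclei and 20.3, 17.6, 19.8, 20.8 and 15.6 FPKM in untreated nuclei. Clock had 22.0, 23.1, 20.9 and 21.6 FPKM with GENUS and 25.1, 23.9, 22.3, 20.1 and 21.4 FPKM without. Both were the most tightly bounded members, at 0.12 for Arntl (interval -0.09 to 0.33) and -0.04 for Clock (interval -0.22 to 0.14). Nr1d1 had 20.8, 22.0, 26.5 and 23.5 FPKM with GENUS against 19.4, 23.1, 19.0, 23.8 and 24.7 FPKM without, and Nr1d2 had 21.1, 20.8, 27.0 and 28.7 FPKM against 22.6, 31.2, 21.2, 23.1 and 27.6 FPKM. These REV-ERB genes overlapped between the groups, at 0.07 for Nr1d1 (interval -0.18 to 0.32) and -0.04 for Nr1d2 (interval -0.31 to 0.23). Dbp had 16.2, 8.48, 24.4 and 16.9 FPKM with GENUS and 9.54, 22.3, 11.9, 17.5 and 16.5 FPKM without. Its spread left a wide interval around 0.05, from -0.62 to 0.72. Of 19 further clock genes tested, 0 were called, and the 2 with the smallest p were Gsk3b, a kinase of clock proteins, at -0.19 (limma adjusted p = 0.641) and Rorb, an activator at REV-ERB sites, at -0.35 (limma adjusted p = 0.675).

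In P301S neurons 22 days of flicker left no clock gene past the test either. With limma, 0 of 10 members were called and 0 had an unadjusted p under 0.05, beside 0% of 12239 tested genes called and 524 genes with an unadjusted p under 0.05. No member had groups that did not overlap, against 0.433% of tested genes. Log2 differences ran from -0.17 for Nr1d1 (interval -0.56 to 0.21) to 0.17 for Cry1 (interval -0.41 to 0.75). Per1 was at 29.6, 26.1, 20.8, 11.2 and 19.0 FPKM in P301S GENUS nuclei, and untreated P301S nuclei ran from 14 to 34.9 FPKM with a median of 17.8. The 2 ranges overlapped over most of their length, and the difference was 0.11 (interval -0.48 to 0.70). Of 10 activity-induced genes, 9 were above 0 with GENUS, 0 were called by limma and 1 had an unadjusted p under 0.05.

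Among the other targets in P301S neurons, Per2 had 24.5, 24.1, 27.4, 18.6 and 26.2 FPKM with GENUS, and 12.2 to 32.7 FPKM with a median of 23.3 without. Dbp had 28.2, 26.0, 20.2, 13.3 and 18.2 FPKM with GENUS, and 14.3 to 25.7 FPKM with a median of 19.8 without. Nr1d1 had 26.3, 30.1, 21.1, 12.6 and 20.4 FPKM with GENUS, and 20.2 to 30.0 FPKM with a median of 24.1 without. Replicate 4 of the stimulated group was the lowest of its group for all 3 genes and for Per1, and it was the highest for Arntl and Clock. Its Arntl level was 20.2 FPKM, against 11.9 to 17.0 FPKM in the other stimulated libraries and 13.7 to 19.4 FPKM in untreated ones. Its Clock level was 24.7 FPKM, and untreated P301S nuclei had 20.4 to 25.4 FPKM. Per3 had 24.5 to 31.4 FPKM with GENUS and 25.7 to 35.3 FPKM without, and Cry2 had 22.4 to 33.5 FPKM with GENUS and 23.3 to 30.9 FPKM without. Cry1 ranged from 2.04 to 8.16 FPKM in stimulated nuclei and from 2.33 to 6.03 FPKM in untreated ones, and Nr1d2 from 16.7 to 27.3 FPKM and from 19.7 to 26.6 FPKM. Of 19 further clock genes 0 were called, and the 2 with the smallest p were Ciart, a repressor of BMAL1 and CLOCK, at -0.66 (limma adjusted p = 0.9988) and Rorb at -0.18 (limma adjusted p = 0.9988).

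The effect of flicker in CK-p25 neurons minus that in P301S neurons was tested in 1 limma fit over both sets. Of the 10 members 0 were called and 0 had an unadjusted p under 0.05, beside 0% of 12460 tested genes called and 542 with an unadjusted p under 0.05. Per1 was nearest, at -0.87 (SE 0.43, limma adjusted p = 1), with the CK-p25 difference below 0 and the P301S difference above 0. All 9 activity-induced genes tested were below 0 in this difference as well, with 0 called by limma and 1 at an unadjusted p under 0.05. The other members lay between -0.31 for Cry1 and 0.25 for Nr1d1. GENUS lasted longer in CK-p25 mice, and this cannot be told apart from the model. The smallest p among other clock genes belonged to Rora at 0.33 and Usp2 at 0.32, each with a limma adjusted p of 1.

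**Figure D3:**
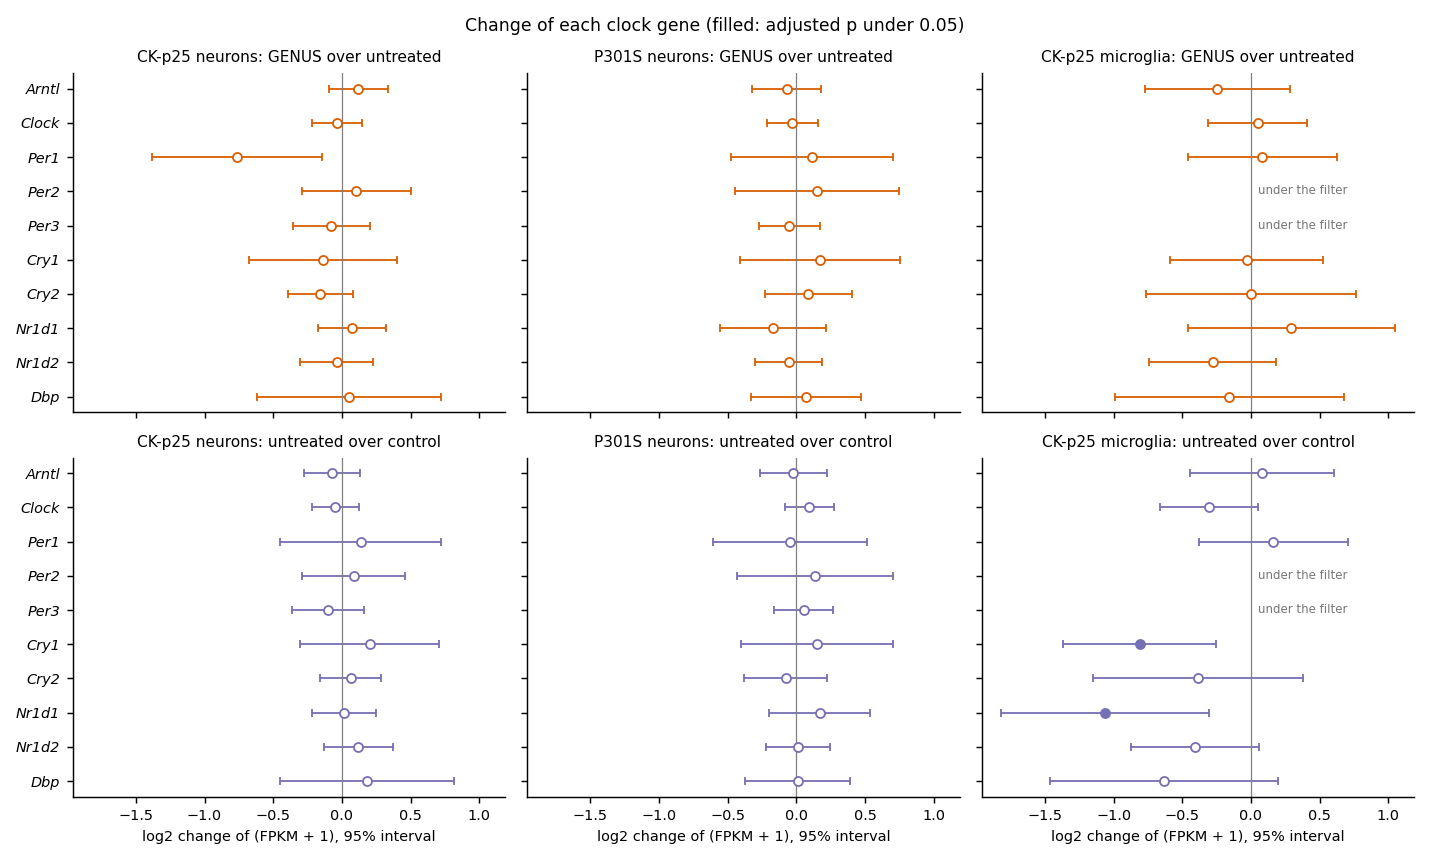
Change of each clock gene on the log2(FPKM + 1) scale with its 95% interval, 1 panel for each set and comparison, with positive values higher in GENUS libraries or in untreated model libraries. Filled points have an adjusted p under 0.05. Cry1 and Nr1d1 in untreated CK-p25 microglia over CK are the 2 filled points, and the Per1 interval in CK-p25 neurons under GENUS runs from -1.38 to -0.14.

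Microglia of CK-p25 mice also showed no member past the test after flicker. Of the 8 members tested 0 were called by limma and 0 had an unadjusted p under 0.05, beside 0% of 10394 tested genes called and 762 with an unadjusted p under 0.05. None had groups apart, against 4.49% of tested genes. Differences were small beside their intervals: Nr1d1 had 0.29 (interval -0.46 to 1.05), Nr1d2 -0.28 (interval -0.74 to 0.18) and Cry1 -0.03 (interval -0.59 to 0.53). Nr1d1 was at 2.50, 1.76, 2.07 and 6.33 FPKM in CK-p25 GENUS microglia and 2.12, 0.546, 3.26 and 3.72 FPKM in untreated ones, so that 1 stimulated library stood above all others. Arntl had 3.78, 5.19, 3.75 and 7.59 FPKM with GENUS and 6.76, 5.97, 6.67 and 4.74 FPKM without, a difference of -0.25 (interval -0.77 to 0.28). Dbp had 5.97, 1.46, 4.51 and 6.02 FPKM with GENUS and 1.99, 3.58, 8.46 and 6.92 FPKM without, a difference of -0.16 (interval -0.99 to 0.67).

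Outside the members, Fbxw11, a subunit of the ubiquitin ligase that marks phosphorylated PER proteins for destruction, had the smallest p of the wider clock list in stimulated microglia. It was at 38.5, 35.2, 36.7 and 35.5 FPKM in CK-p25 GENUS microglia, 52.5, 59.1, 43.6 and 47.0 FPKM in untreated CK-p25 microglia and 43.8, 43.0, 39.7 and 43.3 FPKM in CK microglia. The stimulated libraries were below every other library, and the difference from untreated was -0.45 (SE 0.10), with a limma adjusted p of 0.530. Usp2, a deubiquitinase of clock proteins, followed at 0.28 (limma adjusted p = 0.587). Of the 14 further clock genes tested in microglia, 0 were called and 3 had an unadjusted p under 0.05.

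Between untreated CK-p25 and CK neurons the clock genes did not separate. Of the 10 members 0 were called by limma and 0 had an unadjusted p under 0.05, beside 1.01% of tested genes called and 1404 with an unadjusted p under 0.05. No member had groups that did not overlap, against 2.85% of tested genes. The member differences ran from -0.10 for Per3 (interval -0.36 to 0.16) to 0.20 for Cry1 (interval -0.31 to 0.71), and Per1, with 23.7 ± 10.5 FPKM in untreated CK-p25 and 20.5 ± 6.79 FPKM in CK nuclei (SD, n = 5 each), differed by 0.14 (interval -0.45 to 0.72). Nr1d1 differed by 0.01 on the log2 scale (interval -0.22 to 0.25). The activity-induced genes listed for comparison had differences below 0 in 9 of 9 tested, with 8 at an unadjusted p under 0.05, and Egr1 fell by 1.16 (limma adjusted p = 0.00457). Arc had 6.06, 20.5, 19.0, 41.0 and 46.8 FPKM in untreated CK-p25 nuclei and 89.8, 52.3, 47.0, 115 and 69.7 FPKM in CK nuclei. Of 19 further clock genes 0 were called, and those with the smallest p were Ciart at 0.59 (limma adjusted p = 0.431) and Fbxl21, a ligase subunit for CRY proteins, at -0.50 (limma adjusted p = 0.443).

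Untreated P301S and WT neurons were no further apart. In the limma fit 0 of 10 members were called and 0 had an unadjusted p under 0.05, beside 0.00817% of tested genes called, which is 1 gene, and 690 with an unadjusted p under 0.05. None had groups apart, against 0.278% of tested genes. Differences lay between -0.08 for Cry2 (interval -0.38 to 0.22) and 0.17 for Nr1d1 (interval -0.20 to 0.54). Per1 spanned 14 to 34.9 FPKM in untreated P301S and 12.8 to 31.5 FPKM in WT nuclei, and Per2 spanned 12.2 to 32.7 FPKM and 9.61 to 38.9 FPKM. Dbp spanned 14.3 to 25.7 FPKM in untreated P301S and 16.2 to 27.0 FPKM in WT nuclei. The activity-induced genes were below 0 in 10 of 10 tested, with 0 called by limma and 3 at an unadjusted p under 0.05, and their median was -0.73, against -0.74 between untreated CK-p25 and CK neurons. The 2 further clock genes with the smallest p were Rora, an activator of Arntl, at 0.27 and Bhlhe40 at -0.42, each with a limma adjusted p of 0.869.

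The one comparison in which clock genes passed the test was that of untreated CK-p25 with CK microglia, where Cry1 and Nr1d1 fell. Of 8 members tested, 2 were called lower and 0 higher, and the same 2 had groups that did not overlap. All genes moved widely there: 27% of 10394 tested genes were called, 10.9% lower and 16.1% higher, and 27.9% had groups that did not overlap. A share of 2 in 8 is near the 27% called in either direction and the 27.9% not overlapping. Whether 2 in 8 called lower exceeds the 10.9% called lower was not tested. Below 0 lay 6 of the 8 members, and their median log2 difference was -0.40 against -0.02 over all tested genes.

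Cry1 was at 3.20, 1.15, 2.73 and 3.17 FPKM in untreated CK-p25 microglia and at 6.14, 5.17, 3.6 and 5.51 FPKM in CK microglia. Means were 2.56 ± 0.967 and 5.11 ± 1.08 FPKM (SD, n = 4 each), and the highest untreated library was below the lowest CK library. The difference was -0.81 (SE 0.26, interval -1.37 to -0.25, limma adjusted p = 0.0328), or 1.75-fold lower on the FPKM + 1 scale. Nr1d1, the REV-ERB alpha gene, was at 2.12, 0.546, 3.26 and 3.72 FPKM in untreated CK-p25 microglia and 6.54, 5.59, 5.87 and 4.40 FPKM in CK microglia. It fell by 1.06 (SE 0.35, interval -1.82 to -0.31, limma adjusted p = 0.0376), or 2.09-fold. With GENUS, Cry1 was at 3.03, 1.72, 1.54 and 3.63 FPKM, and 3 of the 4 stimulated libraries were below every CK library, as for Nr1d1.

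Both calls were lost when certain single libraries were left out. Without CK replicate 1, 2 or 4, Cry1 had limma adjusted p-values of 0.0842, 0.0700 and 0.0745, and without untreated CK-p25 replicate 2 or 3 they were 0.0978 and 0.0501. For Nr1d1 they were 0.0854, 0.0741 and 0.0769 without CK replicate 1, 2 or 3, and 0.0711 and 0.106 without untreated CK-p25 replicate 1 or 2. Both differences stayed below 0 in these fits. Nr1d1 overlaps Thra on the genome, and the strand setting of the authors' counting is not given in the sources used here. Thra, which encodes a thyroid hormone receptor, was at 0.109 to 1.02 FPKM in untreated CK-p25 and 0.741 to 1.57 FPKM in CK microglia. In neuronal nuclei the group means were 45.0 to 70.1 FPKM for Thra and 21.6 to 24.3 FPKM for Nr1d1. The part of Thra reads in the Nr1d1 values was not tested in either cell type. Nor was that of the genes overlapping Dbp (Sphk2), Per3 (Uts2), Per2 (Gm35591), Arntl (Gm33721), Clock (Gm7467, Ube2n-ps1) and Cry2 (D930015M05Rik).

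The remaining members were unresolved in this comparison. Nr1d2 had 10.4, 11.9, 16.5 and 18.8 FPKM in untreated CK-p25 microglia and 20.9, 20.2, 21.0 and 14.4 FPKM in CK microglia. Only CK replicate 4 kept the groups from standing apart, and the difference of -0.41 (interval -0.87 to 0.06) had a limma adjusted p of 0.188. Dbp had 1.99, 3.58, 8.46 and 6.92 FPKM in untreated CK-p25 microglia and 4.97, 8.26, 10.2 and 8.64 FPKM in CK microglia, a difference of -0.64 (interval -1.47 to 0.19). Clock had 2.85, 2.20, 1.60 and 2.45 FPKM in untreated CK-p25 and 3.30, 2.91, 2.43 and 3.43 FPKM in CK microglia, a difference of -0.30 (interval -0.66 to 0.05). Its partner Arntl was at 6.76, 5.97, 6.67 and 4.74 FPKM in untreated CK-p25 and 8.95, 3.40, 5.47 and 5.72 FPKM in CK microglia, at 0.08 (interval -0.44 to 0.61). Cry2 and Per1 differed by -0.39 (interval -1.15 to 0.38) and 0.16 (interval -0.38 to 0.70). Per2 and Per3, tested only when the minimum mean was lowered to 0.1 FPKM, had -0.18 and -0.31 with limma adjusted p-values of 0.666 and 0.280.

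Outside the members, the repressor genes Bhlhe40 and Nfil3 rose in the same microglia. Of the 14 further clock genes tested, 2 were called higher and 3 lower in untreated CK-p25 microglia, beside 16.1% of all tested genes called higher and 10.9% lower. A share of 2 in 14 called higher is near that background, and whether 3 in 14 called lower exceeds its background was not tested. The other 3 repressors tested outside the members did not pass, with Ciart at 0.12, Bhlhe41 at 0.23 and Cipc at 0.05. Bhlhe40, the gene of DEC1, which competes at E-boxes and also responds to many stimuli, was at 51.3, 30.2, 28.1 and 24.9 FPKM in untreated CK-p25 microglia and 0.893, 1.09, 1.19 and 4.62 FPKM in CK microglia. Every untreated library was above every CK library, a log2 difference of 3.66 (SE 0.37, limma adjusted p = 6.31e-06). Nfil3, a repressor that occupies D-boxes against DBP, was at 27.9, 16.1, 28.9 and 24.3 FPKM in untreated CK-p25 and 8.24, 3.12, 3.89 and 8.46 FPKM in CK microglia, a difference of 1.93 (SE 0.27, limma adjusted p = 9.7e-05). Stimulated CK-p25 microglia had 20.6 to 60.6 FPKM of Bhlhe40 and 24.4 to 34.4 FPKM of Nfil3, also above every CK library.

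The D-box activators related to DBP were lower. Tef was at 7.53, 7.02, 12.9 and 15.3 FPKM in untreated CK-p25 and 23.0, 22.1, 20.3 and 25.6 FPKM in CK microglia, with groups apart and a difference of -1.08 (SE 0.23, limma adjusted p = 0.00268). Hlf was at 0.057, 0.053, 0.317 and 0.234 FPKM in untreated CK-p25 microglia, at 0.251, 0.0804, 0.458 and 0.426 FPKM in GENUS microglia, and at 2.24, 1.61, 2.38 and 2.29 FPKM in CK microglia. Hlf was under the minimum mean over the 12 libraries. With the minimum at 0.1 FPKM its difference was -1.43 (SE 0.15, limma adjusted p = 1.66e-05). A pair of genes that modify clock proteins also fell. Csnk1e, the casein kinase that phosphorylates PER proteins, was at 50.4 to 63.0 FPKM in untreated CK-p25 and 72.4 to 102 FPKM in CK microglia (-0.64, SE 0.11, limma adjusted p = 0.000611). Usp2 was at 45.3 to 53.3 FPKM in untreated CK-p25 and 63.3 to 79.0 FPKM in CK microglia (-0.52, SE 0.10, limma adjusted p = 0.00206).

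The sorted cells themselves differed between these groups. Summed microglia markers were 10609 to 12433 FPKM in untreated CK-p25 and 13221 to 15797 FPKM in CK microglia. Of the 7 markers, 2 were called higher (Ptprc at 0.75, C1qa at 0.87) and 4 lower (P2ry12 at -1.82, Tmem119 at -1.48, Cx3cr1 at -0.79, Csf1r at -0.50). Summed neuron markers were 1.70 to 6.85 FPKM in untreated CK-p25 microglia, where Gad1 was at 0 in every library, and 4.29 to 22.1 FPKM in CK microglia. Oligodendrocyte markers summed to 119 to 222 FPKM in untreated CK-p25 and 135 to 924 FPKM in CK microglia, endothelial markers to 4.67 to 7.93 FPKM and 12.3 to 17.9 FPKM, and astrocyte markers to 64.5 to 87.3 FPKM and 68.2 to 103 FPKM. Their part in the clock gene differences was not tested. Among the genes listed for comparison, 7 of 8 tested activity-induced genes rose in untreated CK-p25 microglia, beside 16.1% of all tested genes, among them Dusp1 (1.01), Egr2 (0.77) and Fos (0.76). Of 9 genes linked to hormone or temperature, Sgk1 rose (0.85) and Fkbp5 fell by 0.82, both targets of the glucocorticoid receptor.

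Libraries of the same group differed in clock gene level, and these differences were compared between genes. Each value was expressed as its deviation from the group mean on the log2(FPKM + 1) scale, and p-values came from 100000 permutations within groups (two-sided), adjusted over 18 relations, which were 6 gene pairs in 3 sets. Only 1 relation passed with Pearson's r: in P301S neurons Per1 and Per2 deviated together (r = 0.71, permutation p = 0.00153, adjusted p = 0.0275, rho = 0.70 with permutation p = 0.00304, n = 17). Without the 2 libraries farthest from the median of Per1, r was 0.67. In CK-p25 neurons the same pair gave r = 0.04 (permutation p = 0.893, rho = 0.09, n = 14). Genes of 1 library share its depth, RNA and cell composition.

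Arntl and Dbp, whose transcripts peak at opposite times of day in mouse tissues, had a negative r in all 3 sets, weak in microglia, though none passed. The coefficients were -0.69 in P301S neurons (permutation p = 0.00747, adjusted p = 0.0579, rho = -0.58 with permutation p = 0.0244, n = 17), -0.55 in CK-p25 neurons (permutation p = 0.0541, adjusted p = 0.119, rho = -0.42 with permutation p = 0.160, n = 14) and -0.25 in microglia (permutation p = 0.429, adjusted p = 0.514, rho = -0.17 with permutation p = 0.600, n = 12). Without the 2 farthest libraries the P301S value was -0.50. Arntl and Per2 instead gave a positive r of 0.57 in CK-p25 neurons (permutation p = 0.0589, adjusted p = 0.119, n = 14). That pair gave -0.12 in P301S neurons and -0.01 in microglia. Arntl and Per3 gave -0.47 in CK-p25 neurons, -0.28 in P301S neurons and -0.64 in microglia. None of these passed. Dbp and Nr1d2, which peak near each other, gave r = 0.68 in CK-p25 neurons (permutation p = 0.0129, adjusted p = 0.0579, rho = 0.71 with permutation p = 0.00993, n = 14). The same pair gave 0.59 in P301S neurons and 0.70 in microglia, each with a permutation adjusted p of 0.119. Without the 2 farthest libraries it gave 0.55 in CK-p25 neurons, 0.42 in P301S neurons and 0.44 in microglia. Dbp and Per3 in P301S neurons gave r = 0.62 (permutation adjusted p = 0.0579) and rho = 0.67 (permutation adjusted p = 0.0485).

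All pairs of tested members were then compared, a choice made after the values were seen, in a family of 173 relations. The share of passing pairs among all tested genes was not computed, so no count from this family has a background beside it. In P301S neurons 7 of 45 pairs passed, and all 7 joined Per1, Per2, Per3, Cry2 or Dbp. The highest were Per2 with Cry2 (r = 0.87, permutation p = 0.00013, adjusted p = 0.00562, rho = 0.83, n = 17) and Per3 with Cry2 (r = 0.84, permutation p = 3e-05, adjusted p = 0.00259, rho = 0.90, n = 17). Without the 2 libraries farthest on the first gene these were 0.76 and 0.84. In WT nuclei Per3 was at 32.0 to 32.8 FPKM in replicates 1 to 3 and 24.2 to 26.3 FPKM in replicates 4 to 6. In untreated P301S nuclei it was at 29.2 to 35.3 and 25.7 to 28.1 FPKM. Per2 split likewise in both groups, while Per1 and Dbp overlapped in untreated P301S nuclei. Permutation within groups ignored replicate number. The part of this split in the relations of P301S neurons, Per1 with Per2 among them, was not tested. In CK-p25 neurons 3 of 45 passed: Per1 with Cry1 (r = 0.91, permutation p = 3e-05, adjusted p = 0.00259, rho = 0.93, n = 14), Clock with Cry2 (r = -0.85, permutation p = 0.00035, adjusted p = 0.00890, rho = -0.86, n = 14) and Per3 with Cry2 (r = 0.78, permutation p = 0.00053, adjusted p = 0.0115, rho = 0.72 with permutation adjusted p = 0.0673, n = 14). The Per3 relation was 0.53 without the 2 farthest libraries, while the Per1 relation stayed at 0.86 and the Clock relation at -0.86. In microglia 0 of 28 pairs passed, with Per1 and Dbp highest at 0.88 (permutation p = 0.00783, adjusted p = 0.0616, rho = 0.87, n = 12).

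**Figure D4:**
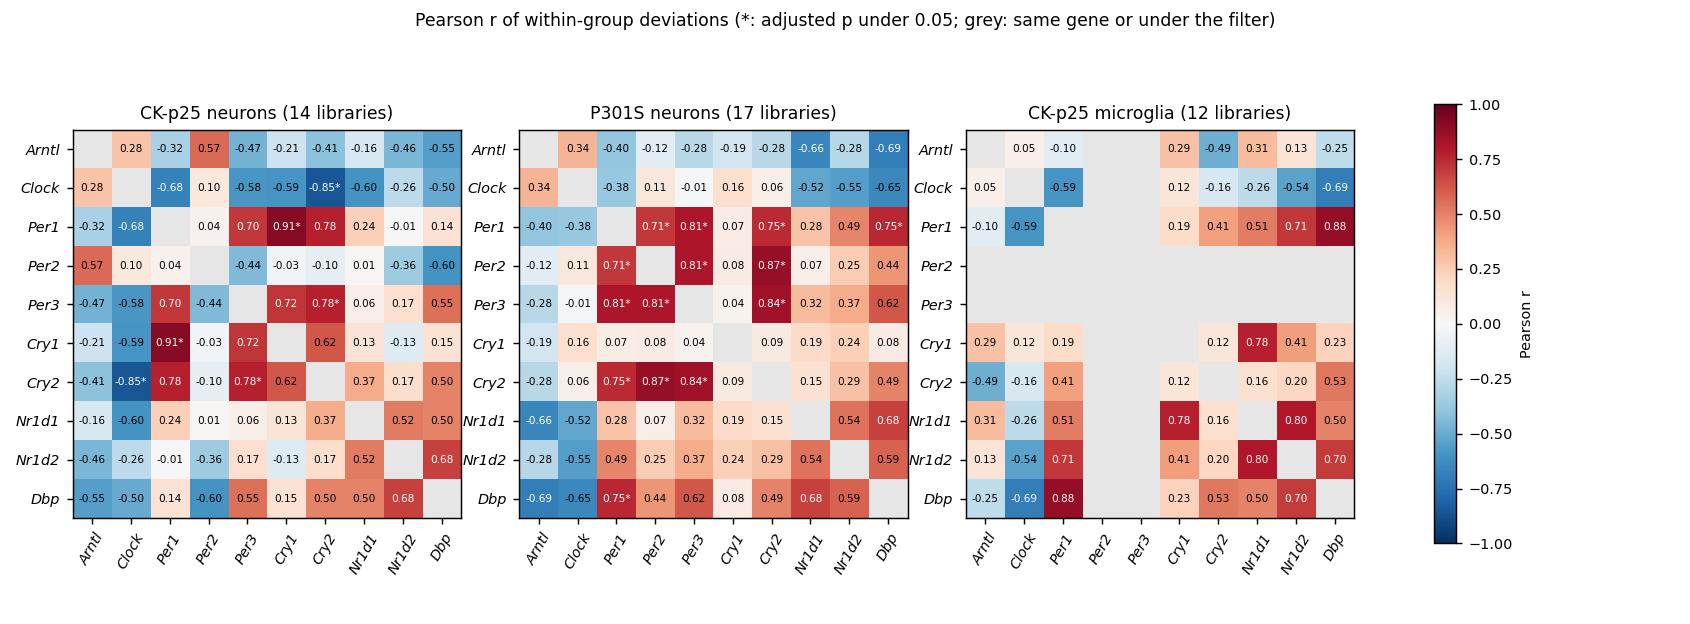
Pearson's r between clock genes within groups, for CK-p25 neurons (14 libraries), P301S neurons (17) and CK-p25 microglia (12), as a colour scale from blue (negative) to red (positive). Stars mark an adjusted p under 0.05, and grey cells are a gene with itself or a gene not tested. The stars in P301S neurons lie among Per1, Per2, Per3, Cry2 and Dbp, and no pair is starred in microglia.

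Per1 was also compared with genes that neurons induce on activity, within the same family of 173 relations. In CK-p25 neurons Per1 deviated with Arc, an immediate response gene of synaptic activity (r = 0.94, permutation p = 5e-05, adjusted p = 0.00288, rho = 0.93, n = 14). Leaving out any 1 library kept this r between 0.91 and 0.96, and without the 2 farthest libraries it was 0.88. Nr4a1, Junb and Npas4, also induced by activity, gave 0.81, 0.78 and 0.69, with permutation adjusted p-values of 0.0244, 0.0316 and 0.0316 (n = 14). By rank, Junb did not pass (rho = 0.76, permutation adjusted p = 0.0572) and Fosb did (rho = 0.76, permutation adjusted p = 0.0418). All 9 activity-induced genes had a positive r, of which 4 passed by r. In P301S neurons the 10 such genes gave -0.18 to 0.31 and 0 passed, with Arc at 0.19 (permutation p = 0.485, rho = 0.14, n = 17). In microglia 0 of 8 passed, at 0.28 to 0.74. The difference between the sets was not tested. For Per1 and Cry1, r was 0.91 in CK-p25 neurons and 0.07 in P301S neurons. Per1 and Per3 gave 0.70 in CK-p25 neurons (permutation p = 0.00986, adjusted p = 0.0644, rho = 0.60, n = 14) and 0.81 in P301S neurons (permutation p = 0.00029, adjusted p = 0.00890, rho = 0.79, n = 17).

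In the libraries themselves, untreated CK-p25 replicates 4 and 5 had the highest Per1 of their group, 33.3 and 35.6 FPKM, the highest Arc, 41.0 and 46.8 FPKM, and the highest Cry1, 4.96 and 5.27 FPKM. Untreated replicate 1 had the lowest of all 3, at 11, 6.06 and 1.99 FPKM. In CK nuclei, replicate 4 led with 31.7 FPKM of Per1, 115 FPKM of Arc and 4.48 FPKM of Cry1. Among the CK-p25 GENUS libraries, replicate 1 was the highest and replicate 3 the lowest for Per1, Arc and Cry1. In P301S neurons, 3 members also deviated against Snap25, a synaptic neuron gene: Cry2 (r = -0.72), Per3 (r = -0.71) and Per1 (r = -0.69), with permutation adjusted p-values of 0.0150, 0.0317 and 0.0470 (n = 17). For Per1 and Per3 the rho adjusted p was 0.0673 each. In CK-p25 neurons 0 of 10 members passed against Snap25, with Per1 farthest from 0 at r = -0.74 (permutation p = 0.0172, adjusted p = 0.0850, n = 14). Snap25 lay between 320 and 487 FPKM in the P301S set, and its part in the relations among the Period genes and Cry2 was not tested.

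**Figure D5:**
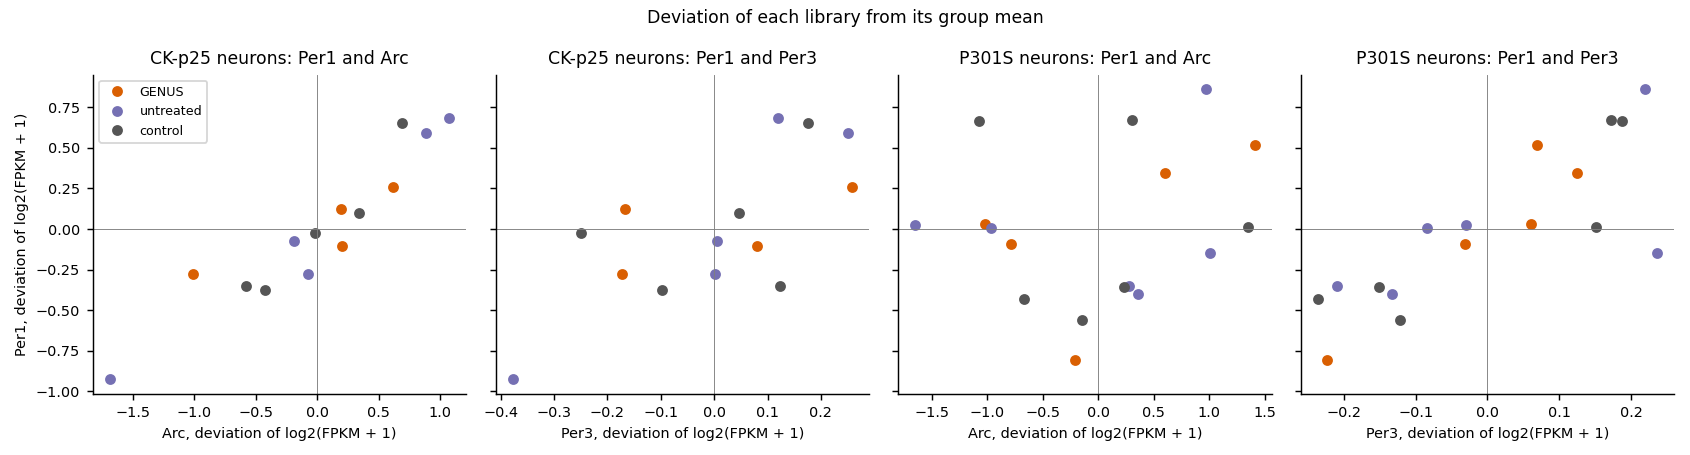
Deviation of Per1 from its group mean in each neuronal library against that of Arc or Per3, on the log2(FPKM + 1) scale, with colours for GENUS, untreated and control libraries. Each point is 1 library. Points for Arc rise along a line in CK-p25 neurons (r = 0.94) and scatter in P301S neurons (r = 0.19), while those for Per3 rise in P301S neurons (r = 0.81) and, more loosely, in CK-p25 neurons (r = 0.70).

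Genes most like Dbp across all tested genes were looked for with the same within-group r. They were Gmppa (0.91), Vmn2r1 (0.90) and Sntg1 (0.90) over 14 CK-p25 neuron libraries, Myt1 (0.92), Khdrbs1 (0.90) and B130006D01Rik (0.89) over 17 P301S neuron libraries, and Ptbp2 (0.96), Hsf1 (0.93) and Stard3 (0.92) over 12 microglia libraries. None is a clock gene of the lists used here. The best member was Nr1d2 at rank 170 of 12566 in CK-p25 neurons, Per1 at rank 100 of 12238 in P301S neurons and Per1 at rank 9 of 10393 in microglia. Near the other end in neurons stood Per2, Arntl and Clock at ranks 12209, 12020 and 11720 in the CK-p25 set, and Arntl and Clock at 11968 and 11829 in the P301S set, where Per2 was at rank 1501. In microglia Clock was at rank 10153, while Arntl was at rank 7369 and not near the end.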

How the data were processed

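The deposited files give FPKM per gene symbol, 1 file per library, made by the authors with STAR, Cufflinks 2.0.0 and the mm9 genome, per the submitters' processing notes. Neuronal nuclei were sorted with a NeuN antibody and prepared with a stranded total RNA kit for low input (SMARTer Pico), and microglia with SMART-Seq v4, per the labels' protocols. FPKM carry no counts, so no counting error or detection limit was derived, and the number of libraries limits precision. FPKM normalization makes a gene's value depend on the other genes of its library, and neuronal values come from nuclear RNA.

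Each set of 3 groups was fitted with limma 3.58.1 (R 4.3.3; empirical Bayes with a mean-variance trend) on log2(FPKM + 1), over genes with a mean of at least 1 FPKM, so fold changes of low genes are understated. P-values were adjusted by Benjamini-Hochberg over all tested genes, with a threshold of 0.05. The script was tested on simulated data. Correlations used deviations from group means.

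All 10 members were named, with clock and comparison genes that were called, the 2 other clock genes of smallest p in each comparison, and the 3 genes most like Dbp in each set. Markers were named as lists. The members and lists were chosen with earlier results of these data known. Overlaps between genes were read from RefSeq GRCm38.p6 names.

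Replicate numbers paired libraries by the rule used (every same-numbered pair correlated above 0.1) only between GENUS and untreated CK-p25 microglia, where r was 0.10 to 0.34. A replicate block changed no member's call there. Alternatives were other pseudocounts, minimum levels, scalings, 2-group fits, no trend, a replicate block and each library left out.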

Additional observations from a re-analysis of the deposited data

Results flagged for a closer look

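Each member was checked in each group for a library far from the others by Dixon's 95% criterion, and 5 of 90 combinations were picked out, where chance gives about 1 in 20. In untreated P301S neurons, replicate 2 had 34.9 FPKM of Per1 and the others 14 to 19.1 FPKM. In the same group, replicate 6 had 26.6 FPKM of Nr1d2 and the others 19.7 to 21.9 FPKM. In CK neurons, replicate 5 had 24.0 FPKM of Arntl and the others 18 to 19.3 FPKM. In CK-p25 GENUS microglia, replicate 4 had 6.33 FPKM of Nr1d1 and the others 1.76 to 2.50 FPKM. In CK microglia, replicate 4 had 14.4 FPKM of Nr1d2 and the others 20.2 to 21.0 FPKM.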

How the results depend on the processing

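Of 493 values of members under the alternatives that leave out no library, 490 kept their direction and their side of the threshold and 3 values that had not passed changed sign. Without 1 library, 632 of 748 did so, 106 values that had not passed changed sign, and 10 lost their call, all for Cry1 or Nr1d1 in untreated CK-p25 microglia. There the number of members called was 0 to 2 without 1 library and 0 with a minimum mean of 5 FPKM, at which Cry1 and Nr1d1 were not tested. Over all alternatives Cry1 ranged from -1.04 to -0.58 (limma adjusted p 0.0121 to 0.0978) and Nr1d1 from -1.45 to -0.72 (limma adjusted p 0.0221 to 0.106). Per1 in CK-p25 neurons with GENUS ranged from -0.99 to -0.59 (limma adjusted p 0.308 to 0.777) and was -0.68 with the replicate block. Elsewhere same-numbered libraries did not pair, with r between -0.10 and 0.14. Over all genes, untreated CK-p25 against CK neurons gave 127 calls, 57 with a minimum of 5 FPKM, 71 with 2 groups, 72 with the replicate block and 77 to 149 without 1 library. GENUS against untreated CK-p25 neurons gave 1 call with the replicate block in place of 0, and the single call in untreated P301S neurons was lost with a pseudocount of 0.1, 2 groups, the replicate block, without WT replicate 6 and without untreated P301S replicate 2, 3, 4 or 5, and 2 genes were called without untreated P301S replicate 1. The difference between models gave 1 call without untreated CK-p25 replicate 5. With quantile normalization 2 of the 18 relations passed in place of 1, the added one being Dbp with Per3 in P301S neurons (r = 0.68, permutation adjusted p = 0.0484); the cause was not tested. The 5 other clock genes called in microglia kept their calls in 80 of 80 values. Levels near 1 FPKM and small groups limit what can be resolved for the Period genes in microglia.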
